A study of Mus musculus with 12 samples.

Results

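Gene expression in LSK cells mobilized into the blood by CWHM-823 together with tGro-b was compared with that of LSK cells resident in the bone marrow, on 6 of the 12 arrays of the study. The members are the 3 arrays labelled CWHM-823+tGro-b and the 3 labelled as control marrow, taken by their titles, and every gene measured on them was examined (23781 genes). LSK cells are lineage-negative, Sca-1 positive and Kit positive, the fraction of blood-forming tissue that holds the stem cells and the earliest progenitors. All groups were male mice of strain DBA2/J. The marrow group received PBS, and its cells came from bone marrow. The CWHM-823+tGro-b group received both agents, and its cells came from peripheral blood. CWHM-823 is an inhibitor of the integrin VLA-4, and tGro-b is a truncated chemokine that activates CXCR2; the labels give neither dose nor time for the combination. The other 6 arrays held blood LSK cells after AMD3100, a CXCR4 antagonist (1 hour), and after G-CSF, a growth factor of granulocytes (9 injections, 5 days). Per the series' design, red cells were removed and Kit positive cells enriched before the flow sort. No blood of untreated mice was measured, so the treatment and the move from marrow to blood cannot be told apart. Nor can any difference in how blood and marrow cells were collected and handled before the sort. Nothing in the labels says that replicate arrays are separate animals, and p-values therefore measure the spread between these samples, which may be technical.

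Stem and progenitor cells are held in the marrow partly by VLA-4, which binds VCAM-1 on stromal cells, and by CXCL12 acting on CXCR4. CXCR2 agonists act mainly on neutrophils, which then release stem cells into the blood, and such agents are combined with VLA-4 inhibitors to raise the yield. Immediate early genes are those switched on by a stimulus without new protein synthesis, among them the EGR, NR4A, FOS and KLF transcription factors, and their RNA is short-lived.

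All levels are log2 intensities relative to the 75th percentile of their array, so that 0 is a bright probe and values near -4 lie close to background; differences are blood minus marrow. Same-numbered arrays shared a slide and were compared within it. A gene passed at an adjusted p under 0.05 (limma, moderated test with slide as a block, Benjamini-Hochberg over all genes). Over the 12 arrays the 75th percentile of signal lay between 1085.89 and 2637.19, and between 70.7 and 83.4% of probes exceeded background. Precision is limited by the 3 arrays in each group. Neutrophil transcripts set marrow array 3 apart from the rest. S100a9, a calcium-binding protein of neutrophils, was at -0.73, -3.21 and 3.17 on the marrow arrays and -4.58, -2.85 and -6.32 on the blood arrays. Lcn2, a granule protein, was at 0.03, 0.41 and 3.27 in marrow and -0.01, 0.32 and -0.27 in blood. Over 12 measured neutrophil markers the median level was -2.31, -2.13 and 0.10 in marrow and -2.08, -1.75 and -2.42 in blood. Their log2 summed signal was 7.19 on marrow array 3 and 6.89 on blood array 3. Differences ran from -4.33 to 2.41, and 1 marker was higher in blood on all slides. None passed, and the median difference was -1.09 with all arrays and 0.01 without marrow array 3. List counts that change without this array are given both ways below.

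The genes of the gate were measured first. Kit, the stem cell factor receptor, was at 3.71, 3.44 and 3.50 in marrow and 3.71, 3.15 and 3.63 in blood. Ly6a, which encodes Sca-1, was at -0.90, -0.69 and -1.03 and -0.18, -0.44 and -1.29. All 10 markers of the gate and of stem cells were above background on all 6 arrays, and none of the 10 passed. The summed level of these 10 markers (log2 of their summed signal) was 5.90 to 6.20 in marrow and 5.97 to 6.38 in blood.

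In mobilized blood, 182 genes rose (0.765% of genes tested) and 76 fell (0.32%) against marrow, 258 in all (1.08%). Large increases included those of immediate early genes, with Egr3, Nr4a1, Nr4a2, Atf3, Klf2 and Klf4 up 11.1-fold to 86.6-fold, and of globin genes. The decreases included cell-division genes such as Spag5, Aurkb and Bub1b and the growth regulator Mycn. By fitted difference, 218 of the 258 genes differed at least 2-fold (0.917%), 153 higher and 65 lower. The fitted difference was at least 8-fold for 36 higher genes and 1 lower (4732471J01Rik, a transcript with no assigned name). Where 1 group had no array above background, the fitted fold is uncertain and only a lower limit holds. By that limit 4732471J01Rik was at least 4.62-fold lower. Some of the 36 higher genes also have only such a limit, from 1.75-fold for Tnfsf11 to 20.7-fold for Nr4a3. For part of them it lies under 8-fold. All 258 had the same sign on the 3 slides, and 241 had groups that did not overlap. Both follow largely from choosing genes by p on these arrays and lend the calls no further weight. Over all genes, 15.5% were higher and 20.2% lower on all 3 slides. All blood arrays were above all marrow arrays for 4.37% of genes and below for 5.39%. The median difference over all genes was -0.05. Leaving out marrow array 3 left 142 genes (93 higher, 49 lower), of which 119 were among the 258 (90 higher, 29 lower). A core of 72 genes (70 higher, 2 lower) passed without each of the 6 arrays in turn, and the fit with no slide block called 89 genes (81 higher, 8 lower). Of the 182 increases 70 were thus in this core, and of the 76 decreases 2. The shares of all genes that rose (0.765%) and fell (0.32%) are the base rate for each list count below.

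**Figure D1:**
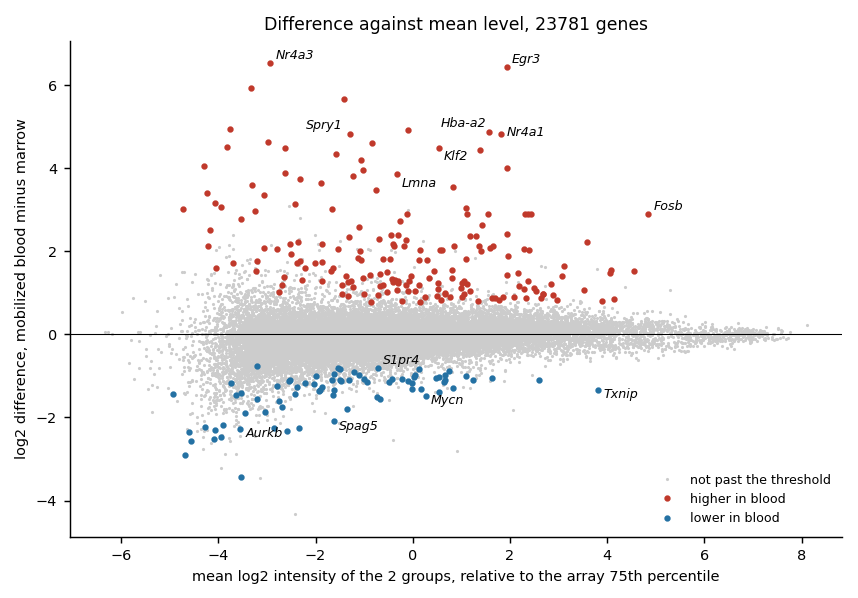
Difference in log2 intensity between mobilized blood and marrow (vertical axis) against the mean level of both groups (horizontal axis, log2 relative to the array 75th percentile), 1 point per gene for 23781 genes. Red points are the 182 genes that passed higher in blood and blue points the 76 that passed lower; the highest red points reach above 6, while 1 blue point lies below -3.

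Promoters are shown for 2 gene lists, immediate early and mitotic, because a short motif was frequent in each. In the 250 bases before RefSeq start sites (GRCm38.p6), the core of the cyclic AMP response element, TGACG on either strand, was found in 29 of 42 promoters of the immediate early list (69.0%) and in 22.2% of 17193 promoters of genes tested. The full element TGACGTCA, which contains the core on both strands, was in 3 of these 42 (7.14%) and in 2.14% of all. The CArG box, bound by serum response factor, was in 6 of the 42 (14.3%) and in 1.29% of all. The CCAAT box, CCAAT on either strand, was in 31 of 43 promoters of the mitosis and spindle list (72.1%) and in 34.8% of all. Both lists include members that did not pass. The TGACG core was in 71.4% of promoters of immediate early genes that passed, and in 32.0% for all genes higher in blood. For all genes lower in blood, the CCAAT box was in 56.4%. Of the 42 immediate early genes 32 had a promoter in the table, some of them several that overlap, as did 39 of 47 mitotic genes and 13811 of all. A match is a description of the letters and not a site shown to be bound. The 120 bases before the start site follow for 4 immediate early genes that rose, picked because they carry the core, shown in capitals. Nr4a3, Egr2 and Klf4, which also rose, have 0 cores in the same stretch.
Nr4a1 (GRCm38.p6, chr15:101266726-101266845, plus strand): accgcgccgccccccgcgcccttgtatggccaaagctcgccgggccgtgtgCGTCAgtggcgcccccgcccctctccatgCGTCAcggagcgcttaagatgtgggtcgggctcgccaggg
Nr4a2 (GRCm38.p6, chr2:57124004-57124123, minus strand): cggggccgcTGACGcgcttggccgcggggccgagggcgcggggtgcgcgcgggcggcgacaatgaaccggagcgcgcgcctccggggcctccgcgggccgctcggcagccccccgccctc
Fosb (GRCm38.p6, chr7:19310046-19310165, minus strand): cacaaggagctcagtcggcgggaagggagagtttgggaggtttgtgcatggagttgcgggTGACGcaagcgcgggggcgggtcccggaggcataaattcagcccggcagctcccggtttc
Atf3 (GRCm38.p6, chr1:191183334-191183453, minus strand): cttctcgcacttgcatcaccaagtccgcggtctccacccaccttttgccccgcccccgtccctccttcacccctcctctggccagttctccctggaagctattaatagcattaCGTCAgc

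The same stretch follows for 4 cell-division genes that fell, picked because they carry the CCAAT box, shown in capitals. Nusap1, which also fell, has 0 in this stretch.
Ttk (GRCm38.p6, chr9:83834569-83834688, plus strand): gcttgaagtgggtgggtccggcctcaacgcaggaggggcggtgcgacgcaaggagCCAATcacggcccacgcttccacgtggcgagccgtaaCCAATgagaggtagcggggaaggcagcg
Bub1b (GRCm38.p6, chr2:118598091-118598210, plus strand): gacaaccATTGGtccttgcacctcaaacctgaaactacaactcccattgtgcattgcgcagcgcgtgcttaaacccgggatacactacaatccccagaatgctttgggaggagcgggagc
Spag5 (GRCm38.p6, chr11:78301471-78301590, plus strand): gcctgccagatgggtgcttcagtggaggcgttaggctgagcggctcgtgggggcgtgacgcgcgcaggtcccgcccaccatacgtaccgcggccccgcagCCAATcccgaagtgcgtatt
Ccnf (GRCm38.p6, chr17:24251410-24251529, minus strand): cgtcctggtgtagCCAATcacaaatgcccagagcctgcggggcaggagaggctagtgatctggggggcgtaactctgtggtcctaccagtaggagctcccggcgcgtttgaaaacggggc
Nr4a1 carries the core 2 times in this stretch and Ttk the CCAAT box 2 times.

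Of 42 immediate early genes, all measured, 24 rose and none fell, against 0.765% of all genes rising. The median difference of the list was 1.60, beside -0.05 for all genes; 34 of the 42 were above background on all 6 arrays. Blood was higher on all 3 slides for 33 of the 42, beside 15.5% of all genes. Between 16 and 22 rose when 1 of the 6 arrays was left out, 19 of them without marrow array 3.

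EGR factors are zinc finger proteins that follow growth factor and integrin signals. Egr3 (probe at chr14:70479222-70479281, mm9) was at -0.97, -0.82 and -2.05 in marrow and 5.49, 4.99 and 4.99 in blood, 86.6-fold higher (difference 6.44 ± 0.39 SE, adjusted p = 0.000101). Egr2 was at -4.38, -3.23 and -5.14 in marrow, where 1 array of 3 was above background, and 1.46, 1.43 and 1.40 in blood (difference 5.68 ± 0.52, adjusted p = 0.000931). The blood arrays of both genes lay within a narrow band far above every marrow array. Egr1 was already well expressed in marrow at 1.53, 1.23 and 1.35, and blood array 3 stood above the other 2 (3.00, 2.95 and 4.24), a 4.08-fold rise (adjusted p = 0.018). Egr4 differed by 1.54 and did not pass (adjusted p = 0.262).

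The NR4A genes, orphan nuclear receptors, rose all together. Nr4a1 (chr15:101105071-101105130, mm9) was at -0.09, -0.22 and -1.47 in marrow and 4.40, 4.04 and 4.29 in blood, 28.6-fold higher (difference 4.84 ± 0.34, adjusted p = 0.000199). Nr4a2 was at -0.83, -0.53 and -1.52 and 2.73, 2.52 and 2.55, 11.8-fold higher (difference 3.56 ± 0.24, adjusted p = 0.000165). Nr4a3 was not well above background on any marrow array (-6.17, -6.47 and -5.94) and reached 0.58, 0.15 and 0.28 in blood, at least 20.7-fold higher (adjusted p = 2.50e-06). Such a bound sets the bright group's mean against the lowest signal well above background of each dim array.

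AP-1 factors are dimers of FOS, JUN and ATF proteins. Fosb was at 3.40, 3.10 and 3.68 in marrow and 6.38, 5.97 and 6.55 in blood, 7.49-fold higher (difference 2.90 ± 0.15, adjusted p = 4.56e-05). Atf3 was at -2.34, -2.37 and -3.01 and 2.54, 2.31 and 2.22, 30.5-fold higher (adjusted p = 0.000356). Fos rose 4.16-fold, from 1.34, 1.09 and 1.33 to 2.97, 2.93 and 4.03, with blood array 3 the highest. Junb rose 4.41-fold (0.49, -0.72 and -0.41 against 2.32, 1.99 and 1.47, adjusted p = 0.0271), as did Fosl1 (a fitted 3.84-fold, with 2 of 3 marrow arrays above background) and Fosl2 (3.14-fold). Jun, the partner of FOS, did not pass (difference 0.09, adjusted p = 0.953), and Jund differed by 0.74 (adjusted p = 0.271). Maff, a small MAF protein, was not above background on any marrow array and was at least 3.37-fold higher in blood.

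Krüppel-like factors restrain division and shape trafficking of leukocytes. Klf2, which drives the egress receptor S1PR1 in lymphocytes, was at -1.89, -1.39 and -1.83 in marrow and 2.60, 2.10 and 3.66 in blood, 22.5-fold higher (difference 4.49 ± 0.35, adjusted p = 0.000334). Klf4 was at -2.60, -2.81 and -2.10 and 1.12, 0.35 and 1.45, 11.1-fold higher (adjusted p = 0.000134), and Klf6 rose 7.45-fold. No blood array of these genes overlapped a marrow array, and Klf10 differed by 0.14 (adjusted p = 0.758). Trib1, a pseudokinase that marks C/EBP alpha for degradation, was at -2.63, -3.16 and -3.69 and 1.75, 1.39 and 1.25, 24.6-fold higher (adjusted p = 4.56e-05). Csrnp1 was at least 12.5-fold and the stress kinase Plk3 at least 5.56-fold higher, neither above background on any marrow array. Crem (4.04-fold), Ier3 (2.76-fold), Rgs2 (2.89-fold, its other probe giving 0.95 and not passing), Zfp36 (2.55-fold) and Zfp36l1 (2.06-fold) rose as well; the last pair bind AU-rich RNA and speed its decay. Of the 18 members that did not pass, the differences ran from -0.64 for Ier5 to 2.05 for Btg2 (adjusted p = 0.0592), and Myc differed by 0.49 (adjusted p = 0.177). Per1 did not pass by its brightest probe (1.26, adjusted p = 0.364), while its other probe gave 2.18 (adjusted p = 0.0311 over all probes).

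**Figure D2:**
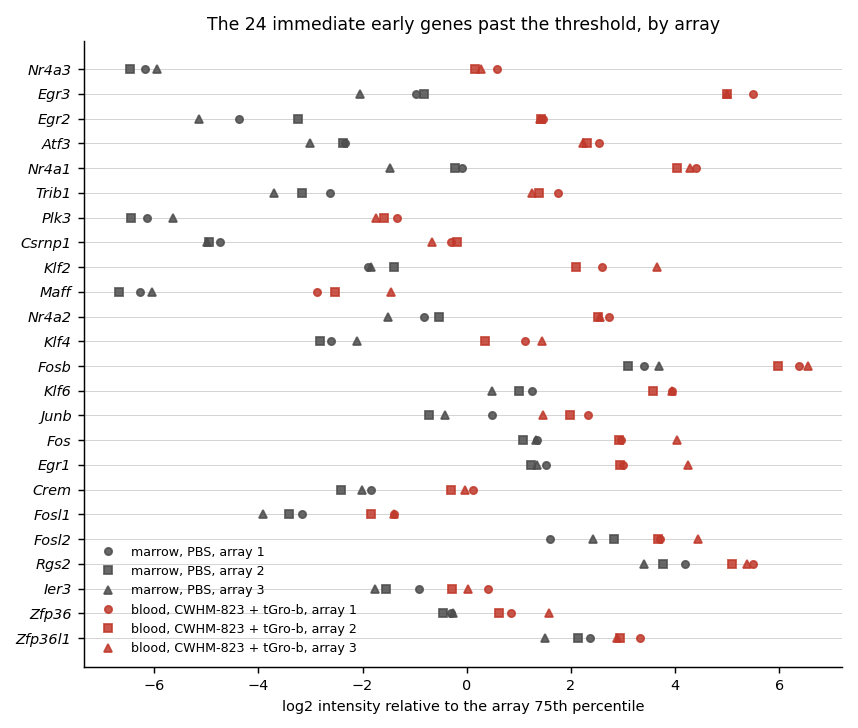
Level on each array (horizontal axis, log2 relative to the array 75th percentile) of the 24 immediate early genes that rose, ordered by difference; grey symbols are marrow, red symbols mobilized blood, and the symbol shape gives the array number, which is the slide. The Egr3 blood points lie between 4.99 and 5.49 and its marrow points at or below -0.82.

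Feedback inhibitors of the ERK pathway were described as a list of 14 measured genes. Of these 3 rose (2 without marrow array 3), beside 0.765% of all genes, and none fell (median difference 0.54). Spry1, a Sprouty protein that blocks RAS activation, was at -3.74, -3.45 and -3.96 in marrow, with 2 of 3 arrays above background, and 1.27, 1.10 and 1.00 in blood (difference 4.84 ± 0.16, adjusted p = 2.50e-06). The 3 blood arrays lay close together and far above marrow. Dusp5, a nuclear ERK phosphatase, rose 5.19-fold (0.18, -0.37 and 0.13 against 2.61, 2.14 and 2.31, adjusted p = 0.000802), and its cytoplasmic counterpart Dusp6 rose 2.34-fold (adjusted p = 0.019). Dusp1 (0.78, adjusted p = 0.225) and Spry2 (-0.19, adjusted p = 0.744) did not pass. Rasgef1b, an exchange factor for small GTPases, was at 0.33, -0.47 and -0.02 and 4.28, 3.55 and 4.01, 16-fold higher (adjusted p = 7.05e-06).

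Of 29 measured NF-kB targets and inflammatory genes, 5 rose, beside 0.765% of all genes, and none fell, with a median of 0.32. Tnfaip3, which encodes A20, a brake on NF-kB, was at -3.30, -2.53 and -3.71 (2 of 3 arrays above background) and 0.07, -0.74 and 0.21 (difference 3.03 ± 0.38, adjusted p = 0.00733). Nfkbia, the inhibitor IkB alpha, rose 2.25-fold (adjusted p = 0.027). The chemokine genes Ccl3 (3.71-fold, adjusted p = 0.0338) and Ccl4 (7.48-fold, adjusted p = 0.0148) rose, and the prostaglandin synthase gene Ptgs2 was at least 3.05-fold higher. Ccl4 varied within marrow, at 2.06, 1.09 and -0.58, and lay at 4.08, 3.70 and 3.51 in blood. Without CWHM-823+tGro-b array 1 none of the 29 passed, and without marrow array 3 there were 2. Of 18 STAT3 and STAT5 targets 3 rose, beside 0.765% of all genes. They were Socs3 (8.33-fold, -0.23, -0.49 and -0.56 against 3.18, 2.87 and 1.85, adjusted p = 0.00156), Cebpd and Cebpb (2.5-fold). The list's median was 0.54, and 13 members were higher on all slides, beside 15.5% of all genes. Without marrow array 3, and likewise with no slide block, 1 of the 18 passed. SOCS3 shuts off signalling from the G-CSF and IL-6 receptors. Cebpd was not above background on any marrow array.

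Cell-division genes were lower in mobilized blood as a group, but few passed. Of 47 measured mitosis and spindle genes (48 listed), 4 fell and none rose, against 0.32% of all genes falling. The list's median was -0.80, with -0.51, -0.81 and -1.17 on slides 1, 2 and 3. Blood was lower on all 3 slides for 43 of the 47, beside 20.2% of all genes, and every blood array was below every marrow array for 31, beside 5.39% of all. In the list 43 genes were above background on all 6 arrays. Without marrow array 3 the median was -0.75 and none of the 47 passed, and in the fit with no slide block none passed either.

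Aurkb, the kinase of the chromosomal passenger complex, was at -3.76, -2.41 and -1.05 in marrow and -5.58, -5.05 and -3.44 in blood, where 1 array was above background (difference -2.28 ± 0.35, adjusted p = 0.0196). Both groups spread widely and overlap, although each slide had the lower value in blood. Bub1b, a spindle checkpoint kinase, was at -1.99, -1.37 and -1.90 and -2.93, -2.79 and -3.31, 2.39-fold lower (adjusted p = 0.0436), with no overlap. Ttk, the checkpoint kinase MPS1, was lower by a fitted 3.04-fold (-1.86, -1.70 and -2.31 against -3.04, -2.98 and -4.67, 2 blood arrays above background, adjusted p = 0.0306). Nusap1, a spindle microtubule protein, fell 2.06-fold (0.56, 1.29 and 1.17 against -0.04, -0.14 and 0.06, adjusted p = 0.0385). Ccna2, cyclin A2, was at -0.14, 0.01 and 0.03 and -1.19, -1.42 and -1.70 and just missed the threshold (difference -1.41 ± 0.27, adjusted p = 0.0524). Mki67, the proliferation marker Ki-67, was at 1.13, 1.51 and 1.77 and 1.02, 0.76 and 1.40 (difference -0.41 ± 0.17, adjusted p = 0.346).

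**Figure D3:**
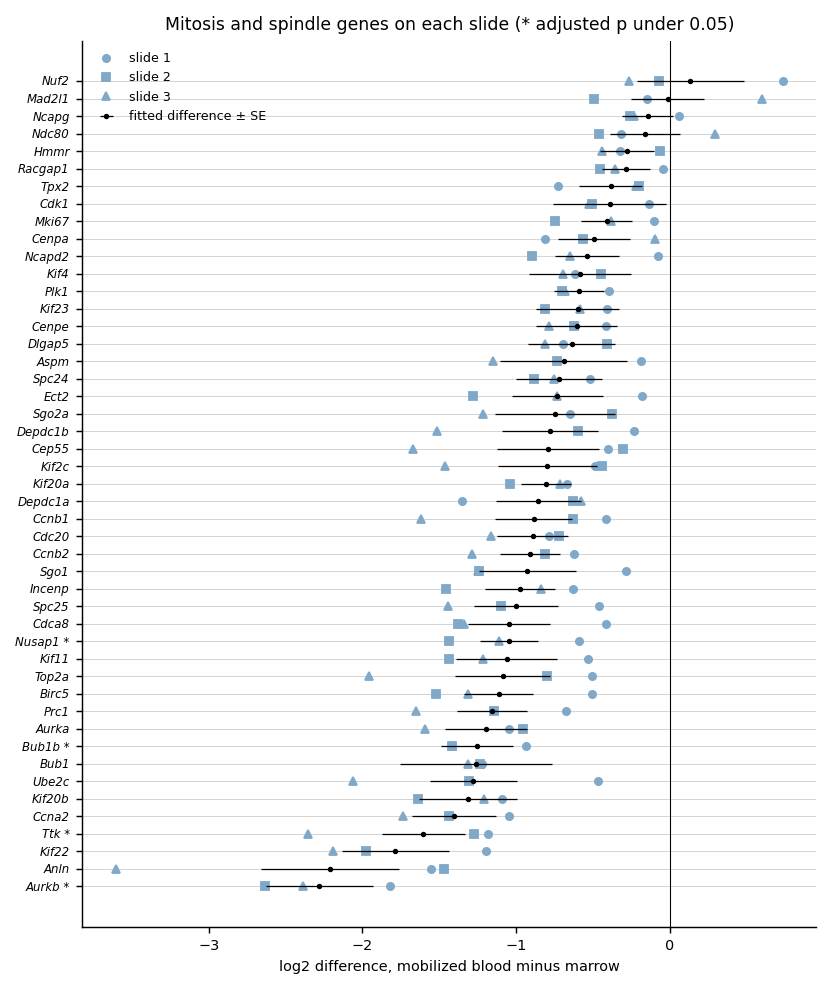
Log2 difference between mobilized blood and marrow (horizontal axis) for the 47 measured mitosis and spindle genes, with blue symbols for each slide and black points for the fitted difference with its SE. Nearly all symbols lie left of 0; the 4 starred genes passed.

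Cell-division genes also stood among the 12 largest decreases, all above background on the 6 arrays. Spag5, astrin of the spindle, was at -0.46, -0.42 and -0.83 in marrow and -2.54, -2.87 and -2.58 in blood, 4.27-fold lower (difference -2.09 ± 0.36, adjusted p = 0.0325). Ccnf, cyclin F, was at -1.33, -1.42 and -1.59 and -2.52, -2.75 and -2.65 (adjusted p = 0.00592), and Fbxo5, the inhibitor EMI1 of the anaphase-promoting complex, fell 2.5-fold (adjusted p = 0.0373). Shcbp1, a protein of the midbody, fell 2.53-fold (adjusted p = 0.0316). Mycn, a MYC family factor expressed in stem cells, was at 1.35, 0.99 and 0.66 and 0.22, -0.58 and -1.06, 2.77-fold lower (adjusted p = 0.0151). Txnip, which binds thioredoxin and limits glucose uptake, was at 4.94, 4.03 and 4.50 and 3.44, 2.98 and 3.01, 2.53-fold lower (adjusted p = 0.0132). The remaining decreases of this size were Nr1h4, the bile acid receptor FXR (2.58-fold), Gucy1b2, a guanylate cyclase subunit (2.5-fold), Plekhh1 (2.43-fold), Inka1, an inhibitor of PAK4 (2.41-fold), and Opn4, melanopsin (2.26-fold). Of genes above background on all marrow arrays and no blood array, Rslcan18 was at least 2.88-fold and N4bp3 at least 2.49-fold lower; N4bp3 was 1 of the 2 decreases that passed without each array in turn, Etaa1 the other, a replication stress protein named after its values were seen.

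Genes of DNA replication and repair had medians below 0. None of 49 measured DNA replication genes passed (median -0.19, and -0.03 without marrow array 3; 0.24, -0.22 and -0.45 on the 3 slides), and 11 were lower on all slides, beside 20.2% of all genes. None of 30 homologous recombination and Fanconi genes passed (median -0.33, 11 lower on all slides), with Rad51ap1 at -1.07 ± 0.28 (adjusted p = 0.146) and Brca2 at -1.02 ± 0.28 (adjusted p = 0.161). The median of 35 replication-dependent histone genes was -0.35, and none passed; without marrow array 3 it was -0.13, and 1 passed lower. Among 25 CDK inhibitors, D cyclins and quiescence genes, Tsc22d1 (2.64-fold), Tob1 (2.45-fold), Klf9 (1 marrow array above background) and Cdkn1a rose and Txnip fell; without marrow array 3 there were 1 higher and 1 lower. The other probe of Txnip gave -1.33 and did not pass. For Cdkn1a, the p53-induced inhibitor p21, the brightest probe gave 0.96 ± 0.17 (adjusted p = 0.0354) and its other probe 0.04. Of 21 p53 targets only Cdkn1a and Pmaip1 passed, and of 15 BCL2 family genes Bcl2l11 (2.67-fold) and Pmaip1 (2.5-fold), both promoters of apoptosis. Without marrow array 3, 1 of each list passed. Mcl1, a protector from apoptosis in the same family, did not pass by its brightest probe (0.69, adjusted p = 0.127), while its other probe gave 1.84 ± 0.25 (adjusted p = 0.0103 over all probes).

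Alpha globin transcripts were high on every mobilized blood array, and the beta globin Hbb-bt was dimmer (mean -0.36 in blood). Hba-a1 (chr11:32183955-32184014, mm9) was at -1.21, -1.32 and 0.02 in marrow and 3.92, 3.74 and 3.18 in blood, 21.9-fold higher (adjusted p = 0.000334). Hba-a2 was at -1.11, -1.28 and -0.25 and 4.40, 4.09 and 3.55, 29.6-fold higher (adjusted p = 0.000334); the 2 alpha globin genes are near-identical copies, and which copy the probes read is uncertain. Hbb-bt, an adult beta globin, was not above background on any marrow array and at least 12.8-fold higher in blood (adjusted p = 0.00028), and Hbb-b2 passed with 1 marrow array above background (adjusted p = 0.0272). Marrow array 3 was the highest of its group for both alpha globin probes and for Hbb-b2.

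No late erythroid transcript other than globins passed. Slc4a1, the red cell anion exchanger band 3, was at -0.88, -0.81 and -1.19 and -0.80, -0.91 and -1.48 (adjusted p = 0.857), and Ahsp, the alpha globin chaperone, at -2.06, -1.35 and -0.91 and -2.38, -1.91 and -2.40 (adjusted p = 0.623). Alas2, the erythroid enzyme of heme synthesis, differed by 1.52 ± 0.37 (adjusted p = 0.117). Of 8 measured late erythroid markers 3 passed, all globins (2 without marrow array 3), and all 8 were above background on at least 1 array of each group. Their summed level (log2) was 4.85 to 5.72 in marrow and 5.54 to 6.18 in blood. None of 23 heme synthesis and iron genes passed, and of 31 erythroid genes the 4 globins alone passed (3 genes without marrow array 3). The part of these markers in the globin increase was not tested; in bulk samples, fewer cells of a type and less RNA per cell cannot be told apart.

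Immunoglobulin and pre-B transcripts were higher in mobilized blood too. Of 18 measured surrogate light chain and pre-B genes, 3 rose, beside 0.765% of all genes, and none fell (median 0.41). Without marrow array 3, 2 rose. Vpreb3 was at -1.77, -1.41 and -1.17 in marrow and 0.65, 0.72 and 0.68 in blood, 4.39-fold higher (adjusted p = 0.00429). Vpreb1, a chain of the surrogate light chain, was at -1.46, -1.96 and -1.04 and 0.72, 0.97 and 0.37, 4.52-fold higher (adjusted p = 0.0151), and Pou2af1, a coactivator of immunoglobulin genes, rose 3.52-fold (adjusted p = 0.0397). Igll1, its partner chain, spread more (-3.02, -2.81 and -1.99 against 0.17, -0.33 and -0.94) and did not pass (adjusted p = 0.068). Named after their values were seen, a probe that the array describes as an immunoglobulin heavy chain variable region (ENSMUST00000103486) rose 7.5-fold (adjusted p = 0.00487), and one described as a light chain variable region (ENSMUST00000103311) rose 14.2-fold (adjusted p = 0.00165). Jchain, the joining chain of secreted immunoglobulin, rose as well, at -2.42, -3.76 and -5.77 and 0.29, 0.07 and -2.91 (adjusted p = 0.0346), with wide spread within each group. Rag1 (-0.48) and Dntt (0.15), the recombination enzymes of early lymphocytes, did not pass.

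Markers of mature B cells were checked beside them. Of 10 measured B cell markers none rose, and Fcer2a, the low-affinity IgE receptor CD23, fell 2.02-fold (adjusted p = 0.0324), with none passing without marrow array 3. Cd79a, a chain of the B cell receptor complex, differed by 1.54 ± 0.39 (adjusted p = 0.131). The summed level of the 10 B cell markers was 5.18 to 5.98 in marrow and 5.09 to 5.79 in blood, all of them above background on all 6 arrays, and their part in the immunoglobulin signal was not tested. None passed among 10 measured T cell markers, 8 NK cell markers, 13 monocyte and macrophage markers, 10 dendritic cell markers, 8 platelet and megakaryocyte markers and 12 endothelial and stromal markers.

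The targets of the 2 agents were measured directly. Cxcr2, the receptor of tGro-b, was at -0.88, -0.43 and -0.22 in marrow and -0.85, -0.20 and -0.93 in blood (difference -0.15 ± 0.27, adjusted p = 0.875). Itga4, the alpha chain of VLA-4, was at 1.49, 1.36 and 1.72 and 1.71, 1.10 and 2.00 (difference 0.08 ± 0.18, adjusted p = 0.895). Itgb1, its beta chain, differed by 0.87 ± 0.24 (adjusted p = 0.172) and Itgb7, an alternative partner of the alpha chain, by 0.08 ± 0.16 (adjusted p = 0.889). None of 34 measured integrin and integrin-linked genes passed, and their median was 0.00, on either side of 0 under other settings. Vcam1, the ligand of VLA-4, was at -4.04, -2.92 and -3.02 and -2.54, -3.49 and -3.85 (adjusted p = 0.99). Cxcr4 was at 4.23, 3.76 and 3.85 and 3.74, 3.58 and 3.23 (adjusted p = 0.439), and of 18 chemokine receptors and ligands only Ccl3 and Ccl4 passed, and 1 gene without marrow array 3.

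Some genes of G protein signalling and leukocyte egress rose, but the egress receptor gene S1pr1 did not pass. Cd69, an early activation antigen that pulls S1PR1 off the cell surface, was at -4.19, -3.67 and -3.39 in marrow (2 arrays above background) and 0.46, 0.32 and 1.03 in blood (difference 4.36 ± 0.22, adjusted p = 3.54e-05). S1pr1 itself was at -1.20, -1.77 and -1.36 and -1.61, -1.84 and -1.61 (adjusted p = 0.598), and S1pr4, another receptor of sphingosine 1-phosphate, was 1.75-fold lower (adjusted p = 0.05), at the threshold. Gpr171, a G protein-coupled receptor, rose 4.72-fold (2.83, 2.13 and 2.41 against 4.89, 4.39 and 4.81, adjusted p = 0.000199), and P2ry14, the receptor of UDP-glucose found on stem cells, rose 2.35-fold (adjusted p = 0.0161). In this list of 31 measured genes, 5 rose and 1 fell (4 and 0 without marrow array 3), beside 0.765% and 0.32% of all genes. The 5 include Klf2, already counted among the immediate early genes. Of 32 selectin and adhesion genes 3 rose, beside 0.765% of all genes, among them Selp, P-selectin, and Cd93. None of the 32 passed without marrow array 3 or with no slide block. Selp had 2 of 3 marrow arrays above background. Selplg, the ligand of P-selectin, did not pass (0.21, adjusted p = 0.657). The probes of Cd44, the hyaluronan receptor, disagreed. Its brightest probe, which stands for the gene in the counts, gave -0.29 (adjusted p = 0.565), while the 3 dimmer probes gave 3.31 ± 0.26, 2.73 ± 0.24 and 1.39 ± 0.15 and passed over all probes (adjusted p = 0.000403, 0.00082 and 0.00249). Which transcripts of Cd44 each probe reads was not tested.

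Structural and secreted proteins followed. Lmna, which encodes lamins A and C of the nuclear lamina, was at -2.67, -2.19 and -1.92 in marrow and 1.86, 1.41 and 1.54 in blood, 14.5-fold higher (difference 3.86 ± 0.25, adjusted p = 0.000134). Vim, vimentin, rose 2.96-fold (3.13, 3.17 and 3.60 against 5.00, 4.52 and 5.07, adjusted p = 0.00167), and Tpm4 and Tagln2, which bind actin, rose 1.89-fold and 1.82-fold; Ahnak passed by its brightest probe (2.90), while its 3 other probes gave 3.03, 1.15 and 0.58. Of 39 genes of this list 5 rose, beside 0.765% of all genes, and 4 without marrow array 3. Of 35 extracellular matrix and proteolysis genes 4 rose, beside the same 0.765%, and 1 without marrow array 3. Plaur, the urokinase receptor, was at least 5.76-fold higher. Of 23 mast cell and basophil genes 4 rose, again beside 0.765%. Hdc, which makes histamine, was at -3.36, -2.53 and -3.13 and 1.34, 0.33 and 1.19, 15.5-fold higher (adjusted p = 0.0034), and Cpa3, a mast cell protease, rose 2.57-fold (adjusted p = 0.0071). Gzmb, granzyme B, was at least 6.35-fold higher, with no marrow array above background. Csf1, the macrophage growth factor, passed by its brightest probe (3.75, adjusted p = 0.00224), and its dimmer probes gave 2.97 and 1.49 (adjusted p = 0.0966 and 0.226 over all probes). Mcpt8, the basophil protease, differed by 0.44 and Tpsab1, a tryptase, by -1.83; neither passed. Tshb, the thyrotropin beta chain, was at least 6.71-fold higher.

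Of the stem cell genes few passed. Of 51 measured, Runx1 rose and Mycn fell (0 and 1 without marrow array 3), and 22 were lower on all 3 slides, beside 20.2% of all genes (list median -0.23). Runx1, a core factor of blood stem cells, differed by 1.28 ± 0.21 at its brightest probe and by 0.07 at the other. Slamf1 (CD150) was at -1.11, -1.45 and -2.25 and -2.38, -2.17 and -2.49 (adjusted p = 0.274), and Cd34 at 2.62, 2.59 and 2.18 and 3.20, 2.84 and 2.71 (adjusted p = 0.225). None of 30 HOX and MEIS genes passed with all arrays, but 3 passed lower without marrow array 3; 13 were lower on all slides, and Hoxa9 differed by -0.69 ± 0.17 (adjusted p = 0.117). Of 41 cytokine receptors Il1r1 alone rose (1.52, 2 marrow arrays above background, adjusted p = 0.0463), and none without marrow array 3; Csf3r, the G-CSF receptor, was at 5.90, 6.25 and 6.28 and 5.56, 5.86 and 6.15 (adjusted p = 0.515), read by a probe whose listed chromosome is not that of the gene.

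Metabolic and housekeeping lists had small positive medians. Of 30 measured cholesterol synthesis genes 3 rose, among them Hmgcs1 (2.07-fold, its other probe giving 0.50) and Sqle (1.74-fold), and 15 were higher on all slides, beside 15.5% of all genes (median 0.34). The 3 compare with 0.765% of all genes rising; they became 1 without marrow array 3 and 0 with no slide block. Of 26 heat shock genes Dnaja1 (1.97-fold) and Hsph1 (2.18-fold) rose, and 14 were higher on all slides (median 0.33). Neither passed without marrow array 3 or with no slide block. Their other probes gave 0.60 and 0.90 and did not pass, and the Dnaja1 probe is listed on another chromosome than the gene. Slc2a3, the glucose transporter GLUT3, was the 1 gene of 36 in glycolysis and hypoxia that rose (4.37-fold, 0.83, 0.07 and 0.03 against 2.65, 2.20 and 2.45, adjusted p = 0.000356), and Sgk1, a kinase downstream of PI3K, was at -2.17, -3.38 and -3.95 and 1.37, 0.89 and 0.86 (adjusted p = 0.000134).

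Over all genes, 15.5% were higher and 20.2% lower on all 3 slides. None of 78 cytosolic ribosomal protein genes passed, and 36 were higher and 1 was lower on all slides (median 0.20). None of 80 respiratory chain genes passed, with 38 higher and 0 lower on all slides; their median differed by slide, at 0.63, 0.17 and 0.05. Proteasome (51 genes, median 0.22), translation factor (49, median 0.20) and splicing factor genes (49, median 0.15) had 21, 21 and 19 members higher on all slides, and none passed. No interferon response gene of 49 passed (median 0.07, and -0.05 without marrow array 3), nor any of 19 MHC class I, 17 MHC class II, 24 Wnt or 47 chromatin genes. Among 25 Notch pathway genes the ligand gene Jag2 rose 4.18-fold (adjusted p = 0.00694), and among 17 clock genes Per2 rose 2.91-fold (adjusted p = 0.002). In 30 of the 52 pathway lists at least 1 member passed, and 169 of the 258 genes were in no list.

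**Figure D4:**
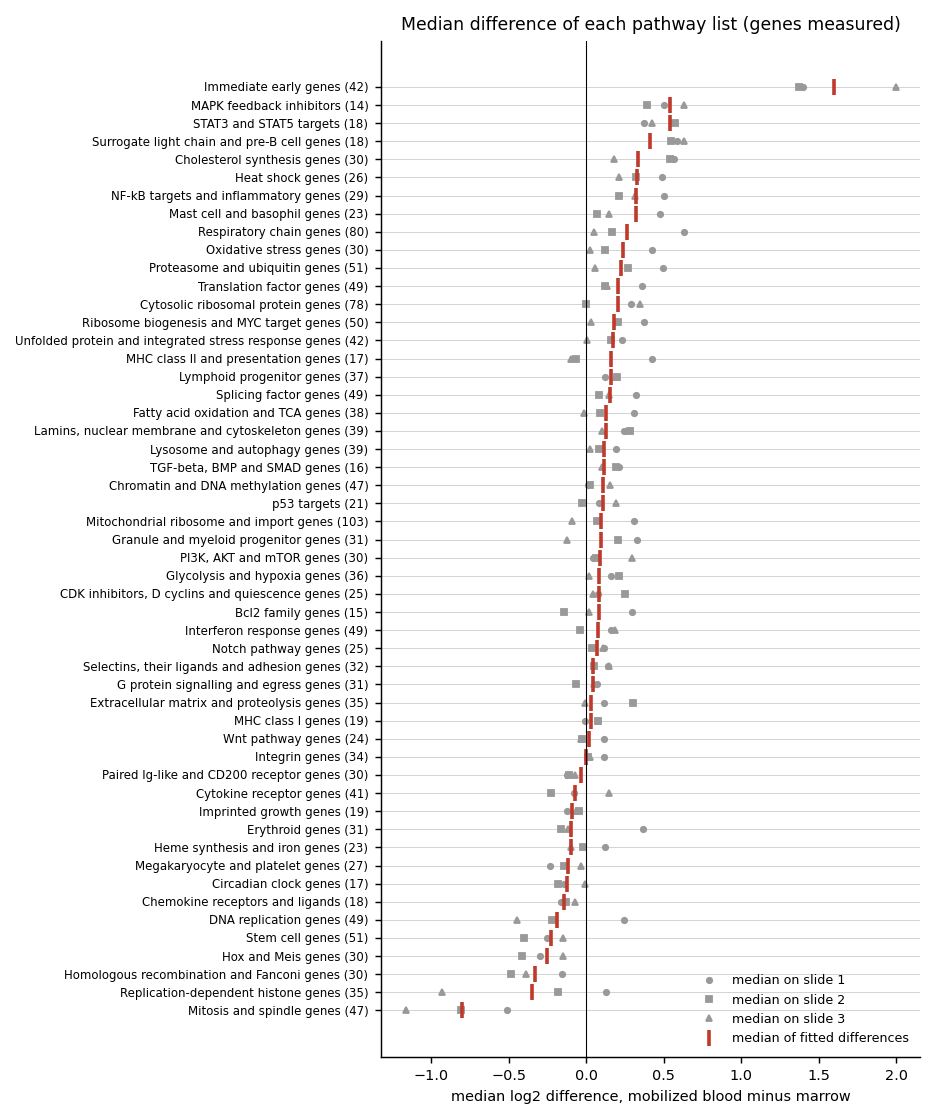
Median log2 difference between mobilized blood and marrow of the measured members of each of 52 pathway lists (number in brackets), with grey symbols for the 3 slides and a red bar for the fitted differences. The immediate early list lies farthest right at 1.60 and the mitosis list farthest left at -0.80; the other lists lie between them.

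Of the 42 immediate early genes, 17 were higher and 0 lower than in AMD3100 blood (median 0.69), and 8 were higher and 2 (Klf10 and Ier3) lower than in G-CSF blood (median 0.31). The treatment times differ (1 hour for AMD3100, 5 days for G-CSF, none given for the combination), and the values below are of the contrasts between blood groups, without marrow. Against AMD3100 blood, 1970 genes were higher (8.28%) and 1974 lower (8.3%), around a median of -0.17 over all genes. The fitted difference was at least 2-fold for 1426 (6.0%). Against G-CSF blood, 274 were higher (1.15%) and 262 lower (1.1%), around a median of 0.15, and 401 had a fitted difference of at least 2-fold (1.69%). Quantile normalization turned the split of 274 and 262 to 127 higher and 238 lower. Both counts depend strongly on the setting: with no slide block they were 37 and 155.

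Spry1, of the ERK feedback list, was higher than after AMD3100 by 2.09 ± 0.16 (adjusted p = 0.00185) and than after G-CSF by 2.59 ± 0.16 (adjusted p = 0.000227), with group means of 1.12, -0.96 and -1.47 after CWHM-823+tGro-b, AMD3100 and G-CSF. Nr4a2 was higher by 1.74 ± 0.24 (adjusted p = 0.0136) and 2.37 ± 0.24 (adjusted p = 0.00227). For Egr3 the differences were 0.65 ± 0.39 (adjusted p = 0.223) and 1.97 ± 0.39 (adjusted p = 0.0386), so that the first did not pass. Of the 12 largest increases over marrow, 9 were also higher than after AMD3100 and 4 than after G-CSF, beside 8.28% and 1.15% of all genes. None of the 12 largest decreases passed in either contrast. These genes were chosen by their values on the same CWHM-823+tGro-b arrays, which favours a difference in the same direction. Klf2 (0.55 ± 0.35 and -0.42 ± 0.35; adjusted p = 0.248 and 0.443) and Cd69 (0.21 ± 0.22 and 0.36 ± 0.22; adjusted p = 0.473 and 0.304) passed in neither.

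The alpha globin probe of Hba-a1 was 3.50 ± 0.34 above AMD3100 blood (adjusted p = 0.0047) and 0.82 ± 0.34 above G-CSF blood (adjusted p = 0.185), where the mean was 2.80. Of the 18 pre-B genes, 0 were higher and 1 lower than in AMD3100 blood (median -0.01). Against G-CSF blood, 8 of the 18 were higher and 0 lower (median 1.47), beside 1.15% and 1.1% of all genes. Vpreb3 (3.39 ± 0.25, adjusted p = 0.000412), Vpreb1 (3.02 ± 0.32, adjusted p = 0.00274), Pou2af1 (3.10 ± 0.33, adjusted p = 0.00305) and Igll1 (3.20 ± 0.47, adjusted p = 0.0117) were among the 5 largest increases over G-CSF blood. Selp (-3.55 ± 0.24), Col18a1 (-3.57 ± 0.23), Dlk1 (-3.35 ± 0.22), Pirb (-3.58 ± 0.26) and Tgfbi (-3.57 ± 0.31) were the 5 largest decreases. Of these 5, Selp passed against marrow (1.37), and the other 4 did not. Against AMD3100 blood the largest decreases were H2al1o (-2.03 ± 0.20), Cib3 (-1.93 ± 0.57), Ptprt (-1.89 ± 0.44), Gpr137c (-1.87 ± 0.51) and Ly6g5c (-1.85 ± 0.37).

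**Figure D5:**
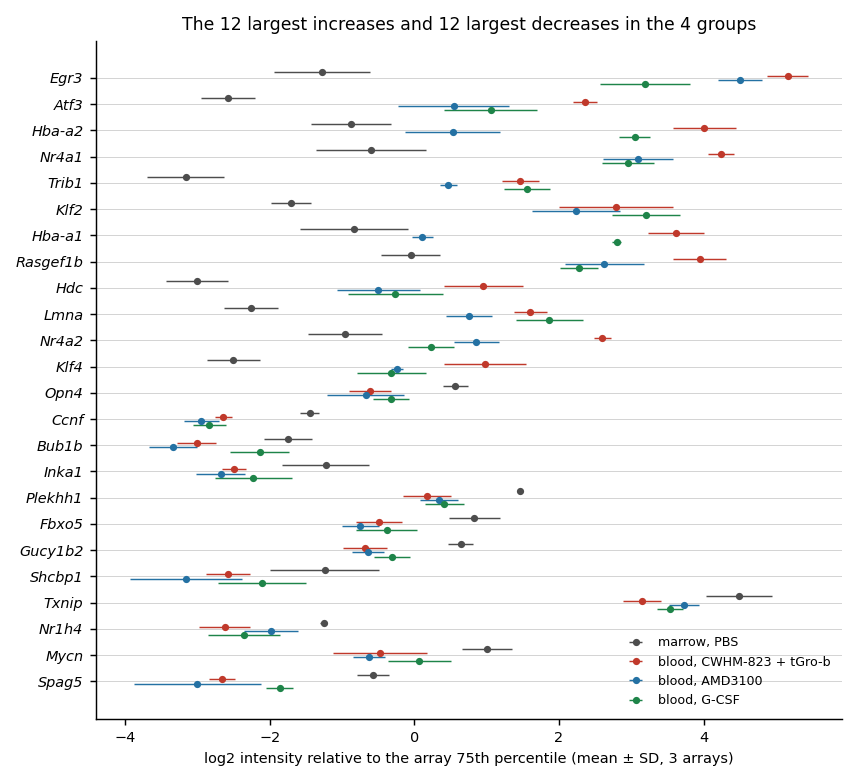
Level in the 4 groups (mean and SD of 3 arrays, horizontal axis in log2 relative to the array 75th percentile) of the 12 genes with the largest increases and the 12 with the largest decreases between CWHM-823+tGro-b blood and marrow. For the 12 decreases, no difference between CWHM-823+tGro-b blood and either of the other blood groups passed.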

How the data were processed

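RNA of sorted LSK cells was amplified and labelled with Cy5 on Agilent 1-colour mouse arrays, per the labels' protocols. The authors deposited scanner intensity values per spot, processed by Agilent Feature Extraction 11.5.1.1 (background subtraction), per the file headers and the submitters' processing notes, and a value table whose array medians are nearly equal and whose scale, from its values, is linear intensity; its normalization is not given in the sources used here, and it served as an alternative only, after log2. The red processed intensity was used. Control spots and spots with an outlier flag were left out, log2 was taken, and the array's 75th percentile was subtracted. Of 39429 probes, 29483 exceeded background on every array of 1 group or more and were kept. A gene took its brightest probe, giving 23781 genes, with names updated by accession to RefSeq GRCm38.p6 for 28330 probes. Probe positions are the array's own, in mm9. For 379 genes the probe's listed chromosome differs from the gene table's.

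All 12 arrays were fitted with limma 3.58.1 in R 4.3.3 (lmFit, eBayes), with group and slide as terms, and the contrasts were adjusted by Benjamini-Hochberg. A gene at adjusted p under 0.05 passed. The slide block rests on shared slides: marrow and CWHM-823+tGro-b arrays of the same slide deviated together from their group means (correlations of 0.368 to 0.571, 3 pairs). Deviations of the 3 arrays of a group cancel out. The negative median across slides (-0.271) therefore follows from the same-slide values and is no separate support for the block. The members and the 62 gene lists (1742 measured genes) were chosen with earlier results of these data known, and lists are described by counts and medians only. Named genes were the 12 largest changes each way among passed genes above background on all 6 arrays, the 4 largest bounds each way, up to 5 members per list by p and members described by role, a fixed set of receptors and markers, and the 5 largest changes each way between blood groups; others are said to be named after their values were seen. The fit was run on simulated data with 200 changed genes. These data were drawn from the fitted model itself, so the run checks the code and not the calls above. Alternatives covered background correction, normalization, probe filter and choice, the block, the samples fitted, and arrays and slides left out. Some genes are not reported here.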

Additional observations from a re-analysis of the deposited data

Results flagged for a closer look

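In the main fit, the mobilized groups differed by a direct test, but the number of genes depended strongly on the setting. Between CWHM-823+tGro-b blood and AMD3100 blood 3944 genes passed (limma with slide as a block, adjusted p under 0.05), 1970 higher and 1974 lower. Between CWHM-823+tGro-b blood and G-CSF blood 536 passed, 274 higher and 262 lower. With no slide block the 2 counts were 37 and 155, and with only the 2 groups compared in the fit 0 and 18. Of the 182 genes higher than in marrow, 84 were also higher and 1 lower than in AMD3100 blood, and 35 were higher and 10 lower than in G-CSF blood. Of the 76 genes lower than in marrow, 16 were lower and 2 higher than in AMD3100 blood, and 5 were lower and 0 higher than in G-CSF blood. Over all genes, 8.28% were higher and 8.3% lower than in AMD3100 blood, and 1.15% and 1.1% than in G-CSF blood. The 182 and the 76 were chosen by their values on the same CWHM-823+tGro-b arrays. That choice favours differences in the same direction, so these counts are no evidence of a difference between treatments. Treatment times differ between these groups.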

How the results depend on the processing

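Against marrow, 258 genes passed, and quantile normalization (266), normexp (202), the authors' value table (229), no filter (173), probes above background on all 12 arrays (302), the mean of a gene's probes (254) and slide as a random block (356) gave counts within 1.5 times. With no replicate block the count was 89, with the 2 groups alone 95, with trended and robust variance 442, against a 2-fold null 46, and with quantile normalization and no block 97. Leaving out slide 1, 2 or 3 gave 37, 49 and 83, and leaving out 1 array 84 to 142. Against AMD3100 blood the count of 3944 became 2011 with normexp, 1560 with no filter, 37 with no replicate block, 6005 with trended and robust variance and 108 with quantile normalization and no block. It was 0 by limma with the 2 groups alone (7002 at an unadjusted p under 0.05) and 0 against a 2-fold null (305 unadjusted). Leaving out slide 1, 2 or 3 gave 1, 0 (6828 unadjusted) and 201, and an array 25 to 3063. Against G-CSF blood the count of 536 became 320 with normexp, 286 with the authors' table, 293 with no filter, 155 with no replicate block, 18 with the 2 groups alone, 926 with trended and robust variance, 32 against a 2-fold null and 148 with quantile normalization and no block. Leaving out slide 1, 2 or 3 gave 33, 34 and 56, and an array 132 to 523. The share higher than in G-CSF blood was 51.1%, but 34.8% with quantile normalization, 31.9% with normexp and 35.3% in the authors' table. The balance of higher and lower genes against G-CSF blood thus turned in these 3. It turned in further settings too, among them no filter (43.7%) and no replicate block (43.2%). In others it did not, such as slide as a random block (53.4%) and G-CSF array 2 left out (65.0%). In addition, 18 list medians changed sign in at least 1 setting. The causes were not tested. With 3 arrays per group and signals near background for many genes, small differences were not detectable.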
